A study of Brassica juncea with 2 samples.

Results

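Superoxide dismutases (SOD) and the copper chaperone that loads some of them were followed in 7 unigenes of Brassica juncea var. CS52, out of 47513 unigenes in the deposited table. The unigenes were taken by identifier: 2 iron forms, 1 manganese form, 2 copper/zinc forms and 2 copper chaperones for SOD1 (CCS). They were chosen with their salt response in view, so the ratios of the 7 are given as a description. RNA was taken from 2 weeks old hydroponic seedlings of this salt-tolerant Indian mustard. The control library (CTRL) came from seedlings kept in water and the salinity stress library (SS) from seedlings held for 24 h at 200 mM salinity, with tissue of about 10 seedlings pooled in each. There was 1 library per condition, so differences could not be set against replicates and were not tested. Seedling tissue was pooled, and fewer cells of a type and less RNA per cell cannot be told apart in such samples. B. juncea carries the genomes of B. rapa and B. nigra, and unigenes are named rapa (R) or non-rapa (NR) by their homology to B. rapa.

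Superoxide dismutases turn superoxide into hydrogen peroxide and oxygen, and catalases and peroxidases then remove the peroxide. In Arabidopsis, the iron form FSD1 and the copper/zinc form CSD2 are mainly plastid enzymes, CSD1 is cytosolic and MSD1 is mitochondrial. CCS hands copper to the copper/zinc forms. In Arabidopsis, scarce copper is known to raise FSD1 and to lower the copper/zinc forms and CCS through a microRNA. Metal contents and microRNAs were not analysed here.

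The study designed a primer pair on 1 of the CCS unigenes, Bju_CS52_R_18294, for quantitative PCR. It names CCS in its comparison of unstressed B. juncea and B. nigra seedlings. Most genes compared there were higher in B. juncea, and CCS was the exception. The study does not name CCS among the genes it checked by quantitative PCR under salt. The pair is shown because it is the designed sequence that ties the name CCS to a unigene described here. Capitals mark the last 5 bases at the 3′ end, where the polymerase extends.
CCS forward: ctgccaaacctcagcaATTCT
CCS reverse: tcgcgtttcccaaaCAAAG
The forward primer has 21 bases and the reverse primer 19. Whether the pair also matches the other CCS unigenes was not analysed here.

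Levels are given in RPKM (reads per kilobase of unigene, scaled by the high-quality reads of the library), computed for CTRL and SS alike with the length of the unigene itself. The reads on unigenes were 77863765 in CTRL and 73982305 in SS. Intervals are 95% intervals (exact Poisson for a level, Clopper-Pearson for a ratio) and cover counting error only, since there is no replicate library. They take reads as independent, which PCR copies are not, so they may be too narrow even for counting error. Log2 ratios carry 0.1 RPKM added to both values, and ratios without log2 carry none. A unigene entered the comparison when it reached 1 RPKM in CTRL or SS, which 43250 unigenes did. SS exceeded CTRL by 2-fold or more in 828 of these (1.91%) and lay below it by 2-fold or more in 1820 (4.21%), and their median log2 ratio was -0.06. All 7 members passed this minimum, and 3 of them lay 2-fold or more above CTRL and 0 lay 2-fold or more below. These were FSD1 and both CCS unigenes. Nothing is read from this count, because the members were picked on the same ratios.

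The kind of tissue was checked by marker annotations. The 17 light harvesting unigenes summed to 63395 RPKM in CTRL and 50307 RPKM in SS, with a median log2 ratio of -0.26. At least 2-fold lower were 3 of the 17 (1 of 17 with median-of-ratios size factors), beside 4.21% of all tested unigenes. The 11 unigenes of the root list summed to 64.5 and 57.4 RPKM, with a median log2 ratio of -0.13. Of these 11, 1 was at least 2-fold lower, pinoid-binding protein 1 (Bju_CS52_R_11221), and 0 with a minimum of 10 RPKM in either library. This root list rests on general names such as root hair defective 3, since words for the casparian strip and for short-root or scarecrow matched 0 unigenes. Words for the Rubisco small subunit also matched 0, so the green list holds light harvesting unigenes only. Green tissue was therefore plain in both libraries. The part of these markers in the results was not tested.

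**Figure D1:**
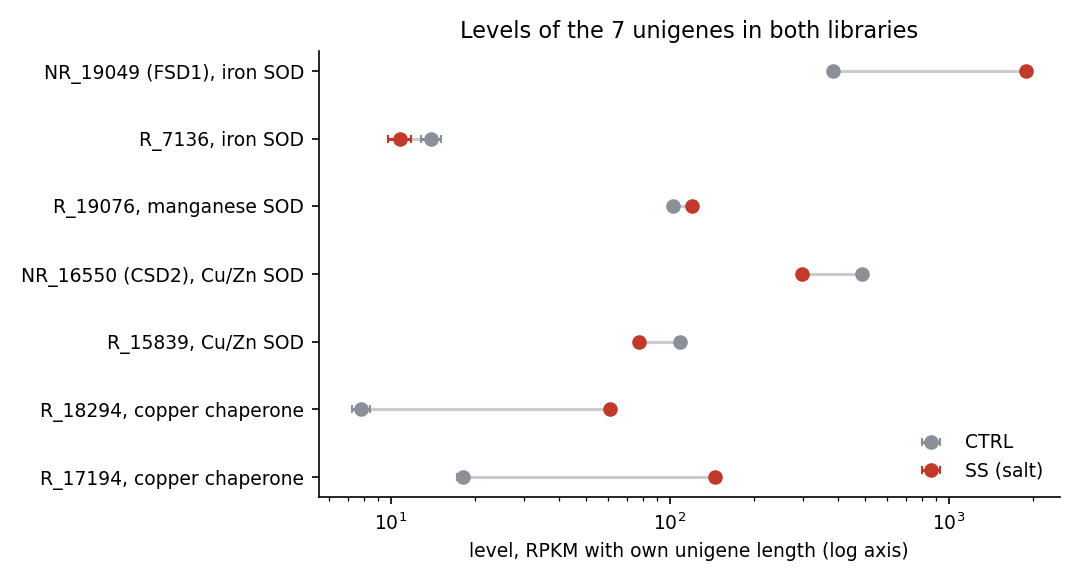
Level of each of the 7 unigenes in CTRL (grey) and SS (red), in RPKM on a log axis, with 95% Poisson intervals for counting error. FSD1 went from 385 to 1881 RPKM and both copper chaperones moved to the right, while both copper/zinc forms moved to the left.

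The iron form FSD1 (Bju_CS52_NR_19049, 1274 bp) was the most abundant of the SOD unigenes looked at in the salt library. The deposited table leaves it without annotation, and the name FSD1 is that of the study's supplementary annotation. It had 46542 reads in CTRL and 215064 in SS. Its level was 385 RPKM (382 to 389) in CTRL and 1881 RPKM (1873 to 1889) in SS. The SS level was 4.88 times the CTRL level (interval 4.83 to 4.93), a log2 ratio of 2.29. FSD1 stood at rank 174 of all unigenes by CTRL level and at rank 38 by SS level. Among 733 unigenes with at least 100 RPKM in CTRL, 3 were at least 2-fold higher in SS, and FSD1 had the highest ratio of the 733. Among 737 unigenes with at least 100 RPKM in SS it had the 4th highest ratio. Both places by ratio are description only, because FSD1 was picked with its ratio known.

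The other iron member, Bju_CS52_R_7136 (453 bp, annotated Fe superoxide dismutase 2), was the lowest of the 5 SOD members in both libraries. It had 600 reads and 14.0 RPKM in CTRL (12.9 to 15.1) and 438 reads and 10.8 RPKM in SS (9.79 to 11.8). Its level was 1.30 times lower in SS (interval 1.14 to 1.47), with a log2 ratio of -0.37. In Arabidopsis, FSD2 and FSD3 are plastid nucleoid proteins that work beside the plastid-encoded RNA polymerase. The deposited table holds 3 further unigenes of these forms, which are no members. Bju_CS52_R_17770, with the same B. rapa match as the member (Bra029190), went from 8.54 to 5.21 RPKM, a log2 ratio of -0.70. Both Fe superoxide dismutase 3 unigenes (Bra009670) were also below CTRL, Bju_CS52_R_12305 with a log2 ratio of -0.41 and Bju_CS52_R_20801 with -0.44. So the 4 unigenes of FSD2 and FSD3 type had lower levels in SS, by less than 2-fold, in the library in which FSD1 was higher. Their intervals lay below a ratio of 1, and FSD1 alone held more reads than the 4 together in either library.

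The manganese form Bju_CS52_R_19076 (1059 bp, Bra034154) changed least in terms of fold. It had 10308 reads in CTRL and 11406 in SS. Its level was 103 RPKM (101 to 105) in CTRL and 120.0 RPKM (118 to 122) in SS, a ratio of 1.17 (interval 1.14 to 1.20) and a log2 ratio of 0.22. Of 7 unigenes in a list of manganese transport, mostly metal tolerance proteins of types known to carry zinc, 0 passed 2-fold in either direction. The median log2 ratio of that list was 0.27. The manganese tracking factor of this list (Bju_CS52_R_23633), whose yeast relative helps to load the mitochondrial enzyme, went from 374 to 421 reads (log2 ratio 0.24).

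Both copper/zinc forms were lower in SS, by less than 2-fold. Bju_CS52_NR_16550 (934 bp) is likewise not annotated there, and the study's supplementary annotation ties it to Arabidopsis CSD2. It was the most abundant of the SOD unigenes looked at in the control, with 43121 reads and 487 RPKM (482 to 492). In SS it had 24899 reads and 297 RPKM (293 to 301). The SS level was 1.64 times lower (interval 1.61 to 1.67), with a log2 ratio of -0.71. Its rank by level moved from 139 to 224, and among the 733 unigenes with at least 100 RPKM in CTRL it had the 34th lowest ratio. This place is likewise description only, because the members were picked with their ratios known.

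The second copper/zinc form, Bju_CS52_R_15839 (843 bp, Bra011971), is named copper/zinc superoxide dismutase 2 by its B. rapa match and CSD1 by its Arabidopsis match, so which of the forms it stands for is not settled. It had 8669 reads and 108 RPKM in CTRL (106 to 111) and 5885 reads and 77.8 RPKM in SS (75.8 to 79.8). This was 1.39 times lower (interval 1.35 to 1.44), with a log2 ratio of -0.48. The intervals of the ratios of both copper/zinc forms did not overlap, which covers counting error only.

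Taken by metal, the 5 SOD members had another main form in each library. The 5 SOD members summed to 1097 RPKM in CTRL and 2387 RPKM in SS. In CTRL, copper/zinc forms made up 54.3% of this sum, iron forms 36.4% and the manganese form 9.36%. In SS, iron forms made up 79.3%, copper/zinc forms 15.7% and the manganese form 5.03%. CSD2 was 1.26 times as abundant as FSD1 in CTRL, and FSD1 was 6.33 times as abundant as CSD2 in SS. The shift rests on FSD1: the other 4 SOD members together went from 712 to 506 RPKM, so without FSD1 the sum was lower in SS. These are transcript levels of unigenes, and enzyme activity was not measured in these libraries.

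**Figure D2:**
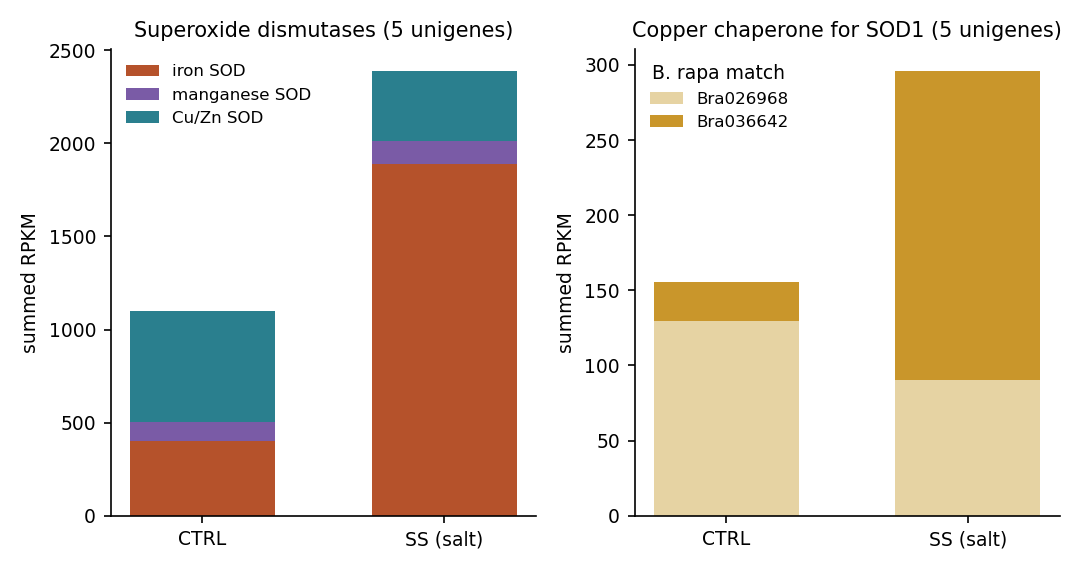
Summed RPKM of the 5 superoxide dismutase members by metal (left) and of all 5 copper chaperone for SOD1 unigenes by B. rapa match (right), in CTRL and SS. Iron forms rise from 36.4% to 79.3% of the left bars, and the Bra036642 unigenes from 16.7% to 69.5% of the right bars. The iron rise rests on FSD1: without it the iron share is 1.96% in CTRL and 2.13% in SS. Each bar is 1 library, without a replicate error.

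Both CCS members share the B. rapa match Bra036642 and had the highest ratios of the 7. Bju_CS52_R_17194 (929 bp) had 1592 reads and 18.1 RPKM in CTRL (17.2 to 19.0), and 12069 reads and 145 RPKM in SS (142 to 147). Its SS level was 8.01 times the CTRL level (interval 7.60 to 8.44), a log2 ratio of 2.99. Bju_CS52_R_18294 (1004 bp), the unigene of the primer pair, had 746 reads and 7.84 RPKM in CTRL (7.29 to 8.42), and 5477 reads and 60.8 RPKM in SS (59.2 to 62.4). Its ratio was 7.76 (interval 7.18 to 8.38), a log2 ratio of 2.94. The intervals of these ratios overlap, and Bju_CS52_R_17194 was 2.31 times as abundant as Bju_CS52_R_18294 in CTRL and 2.38 times in SS. Of the 43250 tested unigenes, 176 and 179 had higher log2 ratios, and nothing is read from these places because both were picked on their ratios. How alike the sequences of both unigenes are was not analysed here, so reads could be split between them by the mapping, and the reads of both summed gave a ratio of 7.93 (interval 7.59 to 8.28).

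The deposited table annotates 3 further unigenes as copper chaperone for SOD1, all with another B. rapa match, Bra026968. They were looked up as relatives and are no members. Bju_CS52_R_21124 (1220 bp), the most abundant annotated CCS unigene of the control, went from 9431 reads and 81.5 RPKM to 6128 reads and 56.0 RPKM, a ratio of 0.686 (interval 0.665 to 0.709). Bju_CS52_R_3162 (355 bp) went from 43.4 to 30.9 RPKM, a log2 ratio of -0.49. Bju_CS52_R_13858 (726 bp) went from 4.71 to 3.27 RPKM, a log2 ratio of -0.51. The 3 unigenes thus had nearly the same ratio, with intervals that overlap, and lay on the opposite side of 1 from the Bra036642 pair.

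The annotated CCS unigenes thus took different shares in the libraries. By summed RPKM, Bra026968 held 83.3% and Bra036642 16.7% of CCS in CTRL, whereas Bra026968 held 30.5% and Bra036642 69.5% in SS. By reads, not divided by length, the Bra036642 share was 17.3% in CTRL and 70.5% in SS. The CTRL reads were themselves recovered with the unigene lengths. All 5 unigenes together had 156 RPKM in CTRL and 296 RPKM in SS, and their summed reads gave a ratio of 1.94 (interval 1.90 to 1.98). Some of these unigenes are short and may cover parts of 1 transcript, in which case a sum of RPKM counts it more than once.

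**Figure D3:**
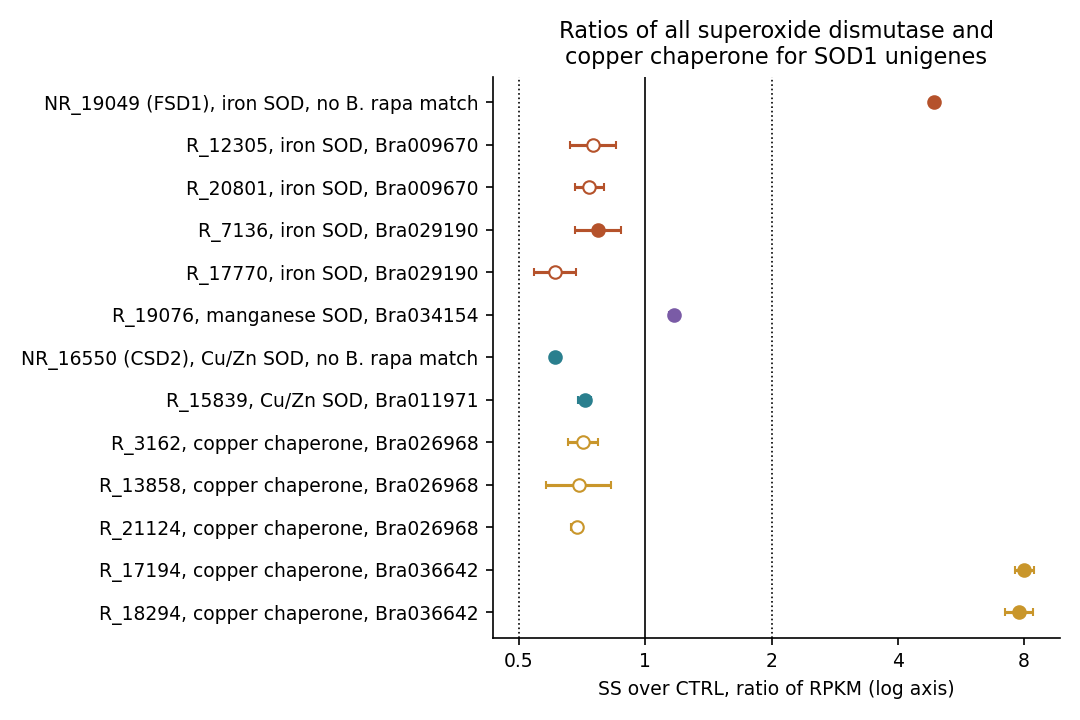
Ratio of SS to CTRL RPKM (log axis) for all 13 unigenes of superoxide dismutase and its copper chaperone, with 95% Clopper-Pearson intervals for counting error. Filled points are members and open points relatives. Solid line, no change. Dotted lines, 2-fold. FSD1 at 4.88 and the Bra036642 chaperones at 8.01 and 7.76 lie past 2-fold, the manganese form is at 1.17, and the other 9 lie between 0.5 and 1.

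Over the 6 unigenes that carry superoxide dismutase in the deposited annotation, 0 passed 2-fold in either direction. FSD1 and CSD2 are not among these 6, because the table leaves both without annotation. A count by annotation words alone therefore misses both, and further SOD unigenes without annotation were not searched for.

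In the order of CTRL levels, CSD2 (487 RPKM) was followed by FSD1 (385), Bju_CS52_R_15839 (108), the manganese form (103), Bju_CS52_R_17194 (18.1), Bju_CS52_R_7136 (14.0) and Bju_CS52_R_18294 (7.84). Neighbours in this order have counting intervals that do not overlap, although with 1 library the spread between seedling pools is unknown. In SS the order was FSD1 (1881 RPKM), CSD2 (297), Bju_CS52_R_17194 (145), the manganese form (120.0), Bju_CS52_R_15839 (77.8), Bju_CS52_R_18294 (60.8) and Bju_CS52_R_7136 (10.8). The chaperone Bju_CS52_R_17194 thus passed the manganese form, which it had been far below in the control.

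**Figure D4:**
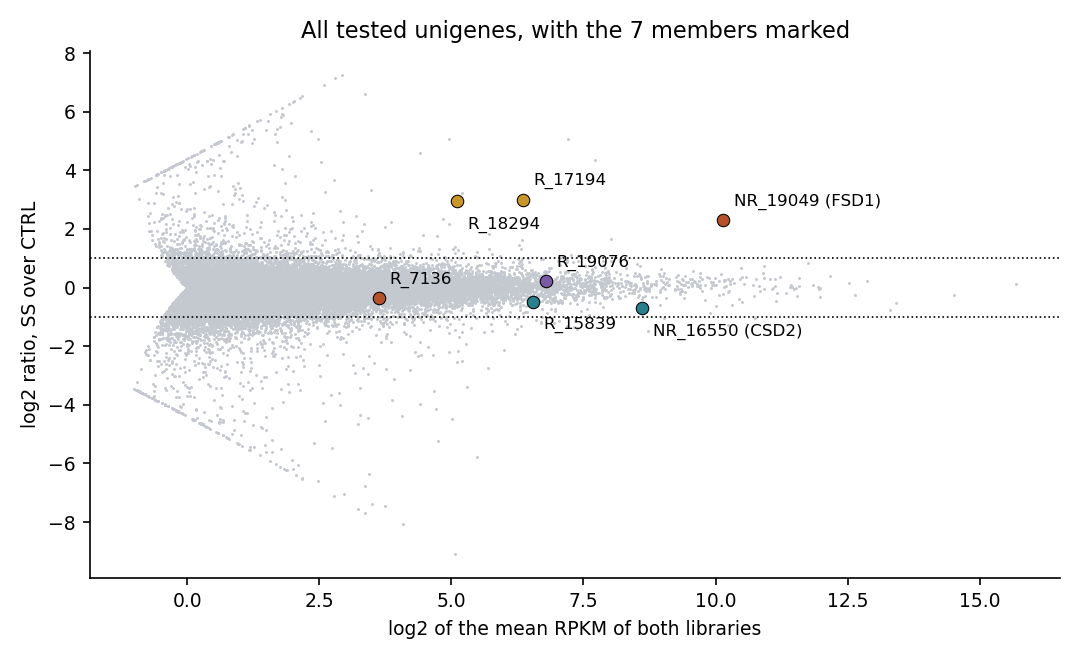
Log2 ratio of SS to CTRL against log2 of the mean RPKM for the 43250 tested unigenes (grey), with the 7 members coloured by kind. Dotted lines, 2-fold. FSD1, picked with its ratio known, lies at a log2 ratio of 2.29 in the range of high levels. The other 4 superoxide dismutases lie inside the dotted lines.

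Likeness to FSD1 and to the CCS members was measured as the distance between the log2 RPKM of CTRL and SS, over 2 libraries, among 5874 annotated unigenes that reached 10 RPKM in CTRL or SS. The nearest to FSD1 was hydroxypyruvate reductase (Bju_CS52_R_25051, an enzyme of photorespiration), at a distance of 1.25, followed by catalase 2 (Bju_CS52_R_26980, 1.36) and maternal effect embryo arrest 14 (Bju_CS52_R_17735, 1.41). Their log2 ratios were 0.55, 0.37 and 0.40, all below the 2.29 of FSD1. Nearest to Bju_CS52_R_18294 were a TCP-1/cpn60 chaperonin (Bju_CS52_R_25037, 0.83), an auxin-responsive GH3 family protein (Bju_CS52_R_26636, 0.88) and an Fe(II)-dependent oxygenase (Bju_CS52_R_17154, 1.22). Nearest to Bju_CS52_R_17194 were a predicted protein (Bju_CS52_NR_12539, 1.15), BTB and TAZ domain protein 2 (Bju_CS52_R_16174, 1.21) and a unigene annotated as catalytics (Bju_CS52_R_3264, 1.35).

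The list of copper delivery and copper proteins holds 54 tested unigenes, with a median log2 ratio of -0.08. Of these, 3 were at least 2-fold higher in SS, beside 1.91% of all tested unigenes. Of the 3, 2 are the CCS members that were picked on this ratio. The third is a copper transport protein (Bju_CS52_R_6875) with only 47 reads in CTRL and 98 in SS, which no longer passes with a pseudocount of 1 RPKM or a minimum of 10 RPKM. At least 2-fold lower were 5 of the 54, beside 4.21% of all tested unigenes. Laccase 17 (Bju_CS52_R_26985), a copper oxidase of lignin formation, went from 3639 reads to 940, a log2 ratio of -1.85. Plantacyanin (Bju_CS52_R_10885), a small blue copper protein, went from 640 reads to 177 (-1.75). A further laccase 17 unigene (Bju_CS52_R_1953) had a log2 ratio of -1.13, with 87 and 36 reads. The last of the 5, named although outside the rule for named genes, were polyamine oxidase 4 (Bju_CS52_R_27286, -1.11), which is a flavin enzyme taken in by the annotation words, and laccase 11 (Bju_CS52_R_27529, -1.07). The general copper chaperone unigenes Bju_CS52_R_12409, Bju_CS52_R_8145 and Bju_CS52_R_11733, looked up after their values were seen, had log2 ratios of 0.73, 0.63 and 0.58.

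The list of iron uptake and storage has 38 tested unigenes and a median log2 ratio of 0.07. By log2 ratio, 4 were 2-fold or more higher in SS and 0 were 2-fold or more lower, beside 1.91% and 4.21% of all tested unigenes. Each of the 4 was below 10 RPKM. A vacuolar iron transporter (Bju_CS52_R_22870), named after its values were seen, had a ratio of 0.494 without the added 0.1 RPKM and a log2 ratio of -0.95 with it, and counts as lower with a pseudocount of 0.01 RPKM. A cytochrome b561/ferric reductase (Bju_CS52_R_15386) went from 4 reads to 197, a ratio of 52.0 that rests on the 4 CTRL reads. A far more abundant unigene with the same annotation and B. rapa match (Bju_CS52_R_19665), outside the rule for named genes, stayed inside 2-fold. It had 8719 and 10616 reads and a log2 ratio of 0.36. Nicotianamine synthase makes the metal chelator nicotianamine, and 3 of its unigenes were higher: Bju_CS52_R_889 with a log2 ratio of 1.66 (11 and 39 reads), Bju_CS52_R_12861 with 1.32 (46 and 118 reads) and, outside the rule for named genes, Bju_CS52_R_21538 with 1.18 (318 and 696 reads). With a minimum of 10 RPKM in either library, 0 of these 4 remain in the comparison.

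The enzymes that remove hydrogen peroxide, the product of SOD, mostly stayed inside 2-fold. All 6 catalase unigenes had log2 ratios above 0, from 0.04 to 0.67, and 0 passed 2-fold. The most abundant, catalase 3 (Bju_CS52_R_27124), went from 1044 to 1254 RPKM. Of 13 unigenes for ascorbate peroxidase and ascorbate regeneration, 1 was at least 2-fold higher, beside 1.91% of all tested unigenes, and the median was 0.12. It was dehydroascorbate reductase (Bju_CS52_R_11649), at 6.09 and 12.6 RPKM, with a log2 ratio of 1.03. The more abundant dehydroascorbate reductase 2 (Bju_CS52_R_18481), outside the rule for named genes, had 156 and 180 RPKM and a log2 ratio of 0.21. With a pseudocount of 1 RPKM, 0 of this list passed. Of 10 glutathione peroxidase and glutathione reductase unigenes and 3 peroxiredoxin unigenes, 0 passed 2-fold, with medians of 0.03 and -0.07. The highest of these lists were glutathione peroxidase 6 (Bju_CS52_R_17805), at 216 and 269 RPKM, and 2-cysteine peroxiredoxin B (Bju_CS52_R_715), at 239 and 227 RPKM. Just under 2-fold lay a glutathione peroxidase 3 unigene (Bju_CS52_R_15553), with 385 and 700 reads and a log2 ratio of 0.93. With median-of-ratios size factors, 1 unigene of the glutathione list passed. The other glutathione peroxidase 3 unigene (Bju_CS52_R_15792) had a log2 ratio of -0.29.

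Respiratory burst oxidases and partners of the plastid iron forms were also within 2-fold. Both tested respiratory burst oxidase unigenes, the plasma membrane enzymes that make superoxide, were a little lower: homologue D (Bju_CS52_R_29900) had a log2 ratio of -0.18 and protein F (Bju_CS52_R_23855) one of -0.19. Of 18 chaperonin and plastid transcription unigenes, 0 passed 2-fold, with a median of -0.20. This list includes chaperonin 20, which in Arabidopsis helps to activate FSD1. Its unigenes Bju_CS52_R_4768 and Bju_CS52_R_19286 had log2 ratios of 0.00 and -0.20. The highest of the list was plastid transcriptionally active 16 (Bju_CS52_R_26992), at 428 and 424 RPKM.

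**Figure D5:**
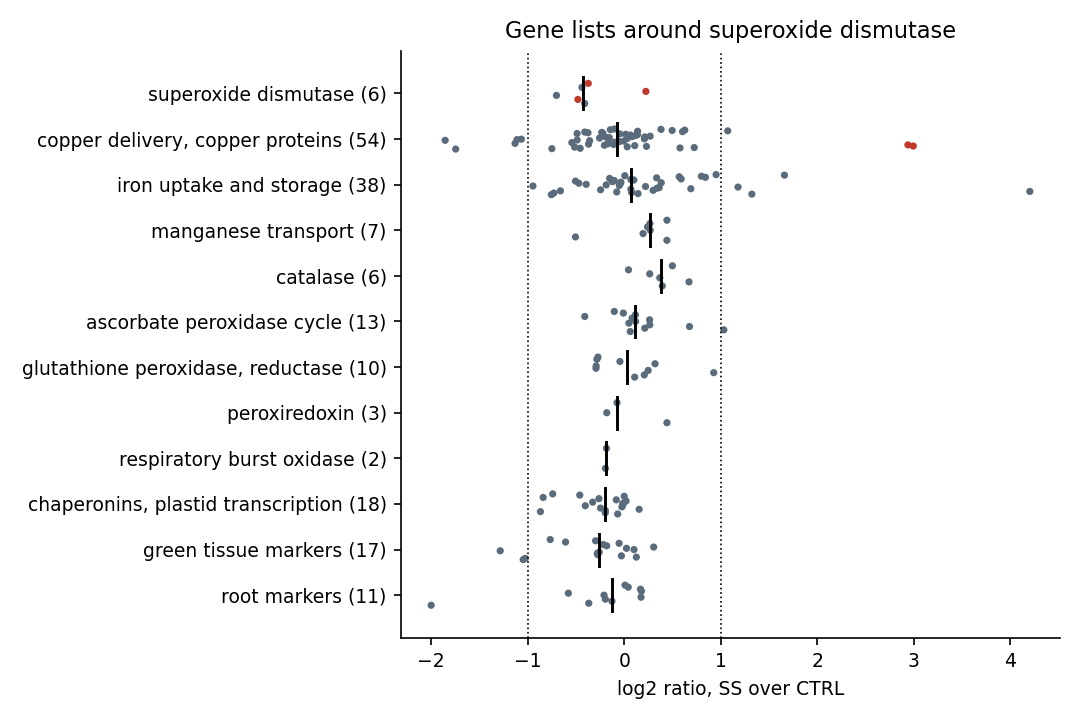
Log2 ratio of SS to CTRL for the tested unigenes of each gene list (number in brackets), 1 point per unigene, spread vertically for display. Red points are members, black bars the median of the list and dotted lines 2-fold. Both copper chaperone members, which were picked on these ratios, lie at 2.94 and 2.99.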

How the data were processed

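The authors assembled the reads with Trinity, clustered transcripts with CD-HIT-EST and mapped the filtered reads back with BOWTIE2 (version not given in the sources used). Clustering by identity may have merged similar gene copies. The deposited CTRL values are RPKM as the authors calculated them. The deposited SS values carry the same header but are a signal without length correction: each of 47505 is a whole number of steps (within 0.01 step), and 1 step is 1 read on 849 bp. The design had taken both columns as RPKM.

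In either series (rapa or non-rapa), unigene numbers follow length. A single length gave whole CTRL reads (within 0.0001 read, plus rounding) for 47390 unigenes, all 7 members among them, without the study's fold changes. The rest took the middle of the lengths that the order allowed. The recovery was tested on simulated data. SS was then converted to RPKM with own lengths. Library totals were the counts of high-quality reads that the study states. Unigenes without a value in a column were left out of ratios.

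With 1 library per condition a count test across samples was not run, so whole reads serve for intervals only (Python 3.11.15, SciPy 1.17.1). Members and lists were chosen with earlier results of these data known. Lists were taken by words in the deposited annotation. The pattern for respiratory burst oxidases was narrowed after it was seen to match carbohydrate. Named are the 7 members, other unigenes with the same annotation, up to 3 unigenes past 2-fold in each direction per list (otherwise the highest), and the 3 nearest annotated unigenes. Alternatives were pseudocounts, minimum values, 4 scalings, own against deposited SS values, a 1.5-fold threshold, and other sums.  Sequences are those of the study's primer table.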

Additional observations from a re-analysis of the deposited data

How the results depend on the processing

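With own lengths, the log2 ratio stayed between 2.27 and 2.35 for FSD1, 2.93 and 3.07 for Bju_CS52_R_17194, 2.81 and 3.02 for Bju_CS52_R_18294, 0.21 and 0.29 for the manganese form, -0.73 and -0.65 for CSD2, -0.50 and -0.41 for Bju_CS52_R_15839, and -0.39 and -0.26 for Bju_CS52_R_7136. With the SS values as deposited these were 2.87, 3.12, 3.18, 0.54, -0.58, -0.49 and -1.27, because all unigenes then share 1 length. The number of members at least 2-fold lower became 1 with deposited values (Bju_CS52_R_7136) and 1 with a threshold of 1.5-fold (CSD2), while 3 were higher under every setting tried.

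Over all tested unigenes, the counts higher and lower were 403 and 644 with a pseudocount of 1 RPKM, 101 and 190 with a minimum of 10 RPKM, 7033 and 9144 with deposited SS values, and 2426 and 5332 at 1.5-fold.

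The iron, manganese and copper/zinc shares were 38.1%, 9.10% and 52.8% in CTRL with all annotated SOD unigenes added, with 79.5% iron and 15.6% copper/zinc in SS. Shares of reads were 43.2% iron and 47.4% copper/zinc in CTRL, and 83.6%, 4.43% and 11.9% in SS, the same as with deposited SS values. Without FSD1 the shares were 1.96%, 14.4% and 83.6% in CTRL and 2.13%, 23.7% and 74.1% in SS. The copper list had 2 higher and 3 lower with a pseudocount of 1 RPKM, and the iron list 1 higher. The iron list had 1 lower with a pseudocount of 0.01 RPKM or no minimum, and the light harvesting list 1 lower with median-of-ratios size factors. No paired analysis was possible because there is 1 library per condition.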
